A study of Mus musculus with 18 samples.

Results

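The response to differentiation was compared between adult stem cells and embryonic stem (ES) cells, gene by gene. The measure is an interaction: the change from undifferentiated to differentiated adult cells minus the same change in ES cells. It used 12 of the 18 arrays in the series, chosen by their titles, with 3 arrays in each of 4 groups of the mouse background 129SV. These were undifferentiated ES cells, undifferentiated adult cells, differentiated ES cells and differentiated adult cells. The title of the series calls the adult cells multipotent adult germline stem cells and asks how alike their transcriptomes are to those of ES cells. The other 6 arrays hold undifferentiated ES and adult cells of the background Stra8-EGFP/Rosa26, called Stra8 here. They took part in no fit reported here other than an alternative with all 18 arrays, and their levels are given only beside those of the 129SV cells. No allele or agent is named for the 129SV groups. The labels state neither the means of differentiation, nor its length, nor whether feeder cells were present, nor how many lines stand behind the replicates. Replicates are called biological in the titles, and the p-values cover no more than the spread among them.

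An interaction of this kind has a simple anatomy. It equals the difference between adult and ES cells after differentiation (the end) minus their difference before it (the start). The same value can arise from cells that began apart and finished alike, or from cells that began alike and finished apart, so each gene was placed by where its difference lay. Interferons are secreted proteins that warn cells of infection. Their receptors act through STAT and IRF transcription factors on a set of genes that detect viral nucleic acid, block viral replication and display antigens on MHC class I. Pluripotent stem cells are known for a weak interferon response, while fibroblasts, which often serve as a feeder layer for them, respond strongly.

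Signals are log2 values, so that 1 unit is a 2-fold change. Within a group, each array had a mean correlation across genes of 0.992 to 0.998 with the other two. The lowest was replicate 3 of the differentiated ES cells, and the sizes of some gene classes below are also given without it. The labels of the stem cells were checked against 29 pluripotency genes. Their mean level was 10.72 to 10.78 in the undifferentiated ES arrays and 10.72 to 10.78 in the undifferentiated adult arrays. After differentiation it was 9.02 to 9.05 in ES cells and 9.46 to 9.51 in adult cells. Of these 29 genes 26 fell in ES cells, where 26.1% of all genes did, and 25 fell in adult cells, where 29.7% did. The germ cell helicase Ddx4 read 7.49, 7.29 and 7.53 in undifferentiated ES cells and 7.57, 7.39 and 7.46 in undifferentiated adult cells, so that this marker did not set the adult cells apart.

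The response differed between adult and ES cells for 7917 of 19938 genes tested, which is 39.7% (limma, Benjamini-Hochberg adjusted p under 0.05). It was more positive in adult cells for 4389 genes (22%) and more negative for 3528 (17.7%). Differences of at least 2-fold were fewer and lay mostly on the positive side, with 1083 genes (5.43%) against 265 (1.33%), or 1348 in all (6.76%). A positive value means that the gene rose more, or fell less, in adult cells. At the start, 785 genes (3.94%) differed at least 2-fold between adult and ES cells, and 684 of them (3.43%) were lower in adult cells. At the end, 253 genes (1.27%) did, 135 (0.677%) higher and 118 (0.592%) lower in adult cells. The median over all genes was -0.08 for the difference in response, 0.06 at the start and -0.03 at the end.

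Among the 1348 genes, the start held more of the differences than the end. A gene was assigned to the start or the end if it was called there with a size of at least 1, and was not at the other. This put 598 genes at the start and 182 at the end. A further 27 genes differed at both with opposite signs. At both with the same sign there were 4, 1 with a positive response (0.00502%) and 3 with a negative one (0.015%). The remaining 537 had differences that were under 2-fold or not called at the start and likewise at the end, 417 positive (2.09%) and 120 negative (0.602%). These classes describe where the interaction lies and carry no test of their own. They have hard edges: for 36 genes the start difference lay within 0.02 of the threshold, among them the collagen gene Col1a2, whose start difference of -0.99 left it in the end class.

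**Figure D1:**
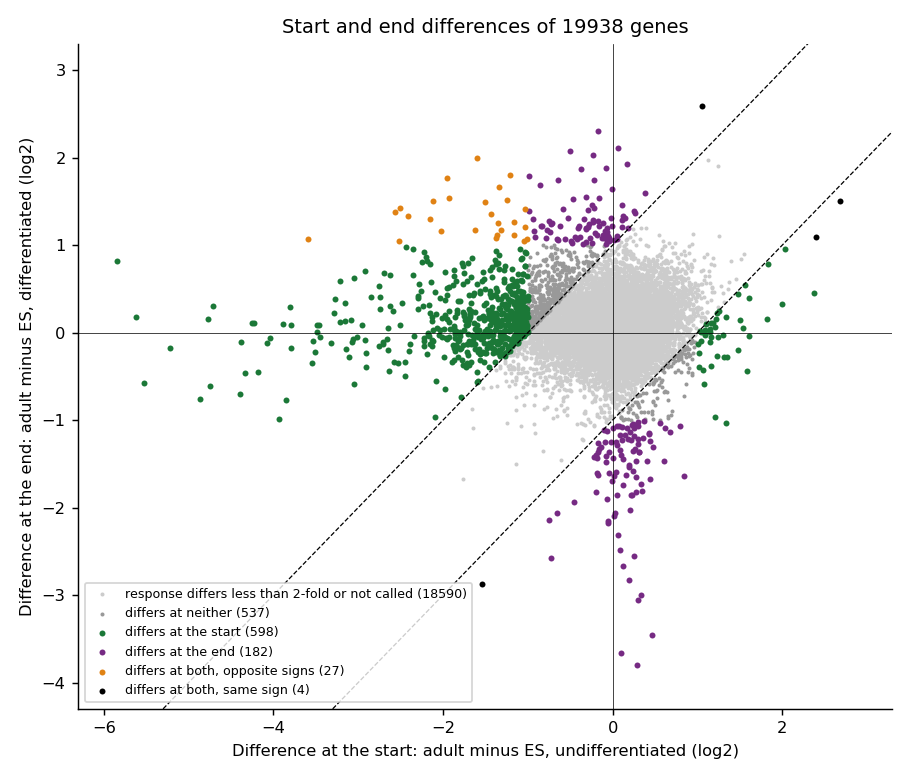
Each point is a gene, placed by its difference between adult and ES cells (adult minus ES, log2) at the start on the horizontal axis and at the end on the vertical axis. The dashed lines mark an end difference 1 above or below the start difference. The 598 genes of the start class lie mostly to the left along the horizontal zero line, and the 182 genes of the end class lie above and below the origin.

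The start class lay mostly on the positive side. In 554 of its genes (2.78% of all tested) adult cells began lower, and in 44 (0.221%) they began higher. Over the 554 genes the median difference was -1.44 at the start and 0.09 at the end, which the class requires in part, and 531 had a 95% confidence interval of the end difference within 2-fold either way. The ES cells moved in most of them. In 255 genes only the ES cells changed at least 2-fold, and they fell, as 6.8% of all genes did in ES cells. In 136 only the adult cells did, and they rose, as 7.53% of all genes did in adult cells. Here and below, such shares count each gene that moved so in the named cells, whatever the other cells did. Both fell in 57, both rose in 18, they went in opposite directions in 15, and neither passed 2-fold in 73. The median response was -1.28 in ES cells and 0.43 in adult cells, beside 0.05 and -0.08 over all genes. Of the 554 genes, 55 belonged to 6 lists of interferon and antigen presentation genes, 99 to any of the 30 lists and 455 to none. Over all 19938 genes tested, 99 belonged to the 6 lists, 586 to any list and 19352 to none.

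The Stra8 cells, which the classes did not use, differed the other way. Among the 554 genes that began lower in adult 129SV cells, adult Stra8 cells were above ES Stra8 cells in 466 and below in 88. The median of this difference was 0.39, beside -0.00 over all genes. It reached 2-fold upwards in 40 genes and downwards in 0, and over all 19938 genes it did so in 97 and 53.

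Interferon-induced genes led the start class by size. The 6 largest differences in response were those of Cxcl10, Ifit3, Irf7, Iigp1, Ifit3b and Trim30a. Cxcl10 is a chemokine that draws activated T cells and is induced by interferon. It read 13.17, 13.13 and 13.14 in undifferentiated ES cells, 7.17, 7.45 and 7.27 in undifferentiated adult cells, 7.95, 8.22 and 7.95 in differentiated ES cells and 8.91, 8.83 and 8.82 in differentiated adult cells. The undifferentiated ES arrays stood far above all the others. ES cells fell by 5.10 and adult cells rose by 1.56, so that the difference in response was 6.66 ± 0.13 (SE, adjusted p = 3.39e-11). The small end difference of 0.82 ± 0.09 was also called (adjusted p = 3.19e-05).

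Ifit3, an antiviral protein of the IFIT family, read 10.88, 10.97 and 10.83 in undifferentiated ES cells. It read 5.45, 5.04 and 5.34 in undifferentiated adult cells, 6.13, 6.27 and 6.02 in differentiated ES cells and 6.33, 6.43 and 6.20 in differentiated adult cells. The difference in response was 5.80 ± 0.15 (adjusted p = 3.36e-10), and the end groups overlapped (0.18 ± 0.11, adjusted p = 0.246). Irf7, the factor that switches on type I interferon genes, read 12.53, 12.52 and 12.52 in undifferentiated ES cells and 7.42, 7.13 and 7.36 in undifferentiated adult cells. After differentiation it read 7.97, 7.69 and 7.89 in ES cells and 7.52, 7.71 and 7.78 in adult cells. These last groups overlapped, and the difference in response was 5.04 ± 0.14. For Irf7 the adult response was 0.37 ± 0.10 (adjusted p = 6.55e-03) against -4.68 ± 0.10 in ES cells.

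Promoters are printed for Cxcl10 and Ifit3, the largest of this class, and for Irgm1, which lay below ES cells at the start but crossed over, as examples with a match to an interferon-response element. The sequences below run 5′ to 3′ along the gene over the 250 bases before the start, from RefSeq on build GRCm38.p6. Capitals mark GAAA followed by any 2 bases and GAAA, or the reverse complement with TTTC, a core of the element that the interferon-activated STAT and IRF complex binds. Cxcl10 is on the minus strand at chr5:92348890-92349139, Ifit3 on the plus strand at chr19:34583279-34583528 and Irgm1, an interferon-inducible GTPase, on the minus strand at chr11:48871421-48871670.
Cxcl10: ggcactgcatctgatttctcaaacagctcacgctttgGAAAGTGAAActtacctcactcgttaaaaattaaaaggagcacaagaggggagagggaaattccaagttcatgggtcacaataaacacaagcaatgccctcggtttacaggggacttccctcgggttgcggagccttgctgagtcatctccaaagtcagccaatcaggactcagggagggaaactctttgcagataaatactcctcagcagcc
Ifit3: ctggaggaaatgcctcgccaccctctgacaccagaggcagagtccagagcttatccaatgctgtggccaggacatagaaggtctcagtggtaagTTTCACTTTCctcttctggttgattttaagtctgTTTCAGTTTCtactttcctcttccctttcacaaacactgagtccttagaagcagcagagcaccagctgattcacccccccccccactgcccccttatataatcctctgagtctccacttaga
Irgm1: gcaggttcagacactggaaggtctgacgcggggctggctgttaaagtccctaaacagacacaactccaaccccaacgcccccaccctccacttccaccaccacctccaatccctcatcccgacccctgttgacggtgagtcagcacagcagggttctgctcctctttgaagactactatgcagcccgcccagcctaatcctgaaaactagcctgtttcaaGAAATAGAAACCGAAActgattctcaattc

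The core began 213 bases before the start in Cxcl10, and 156 and 122 bases before it in Ifit3. In Irgm1 there were 2 cores that overlap each other, at 30 and 24 bases before the start. No match lay in the window of Irf7. Counted over windows from 250 bases before to 50 after the start, on both strands, 607 of 15614 genes with a promoter entry held the core (3.89%). In the start class with a positive difference it was 53 of 432 (12.3%). Among antiviral effectors it was 8 of 22 (36.4%), and among the interferon-inducible GTPases all 4 with an entry held it. Both lists were chosen by role in the interferon response, so their shares would be the same whatever these arrays showed. A match describes letters only, and binding was not measured.

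**Figure D2:**
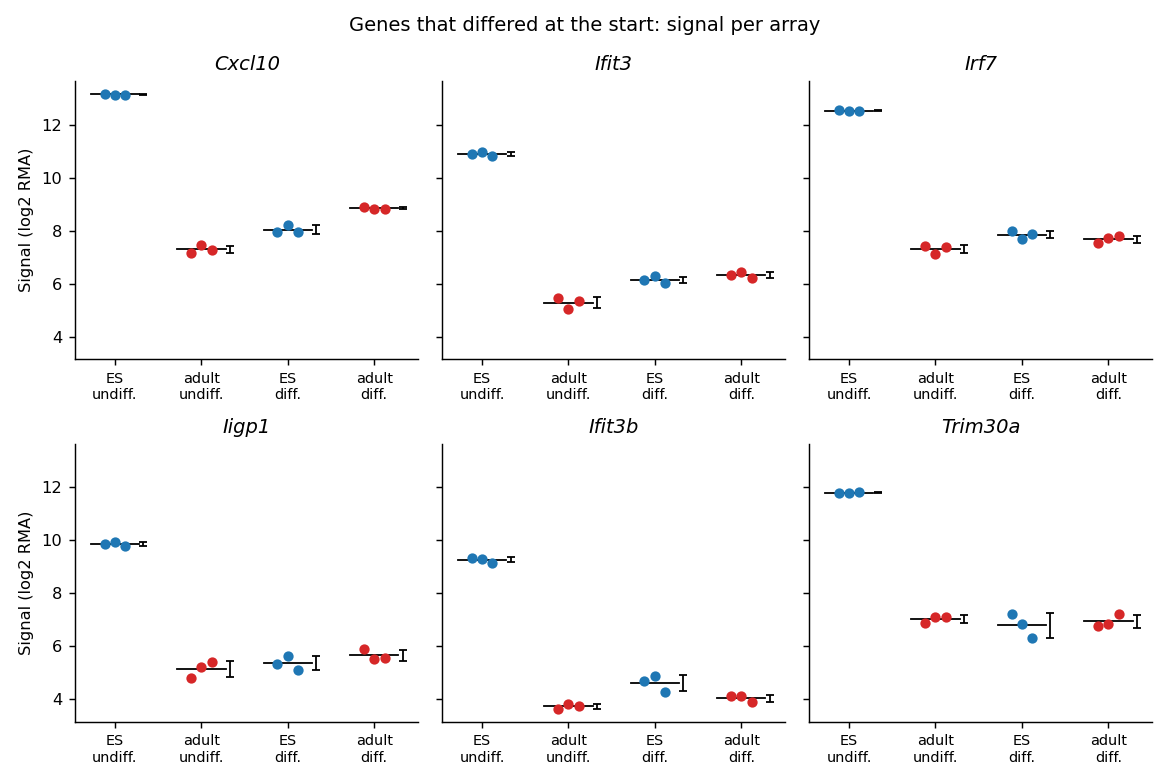
Signal (log2) on each of the 12 arrays for the 6 genes with the largest positive difference in response in the start class, in ES cells (blue) and adult cells (red), before and after differentiation. Points are arrays, lines are group means and bars are the SD of 3 arrays. In every panel the 3 undifferentiated ES arrays lie above the other 9.

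Taken by role, the called differences in response of the interferon genes were mostly positive in each list, while some members were not called. Together the 6 lists held 99 measured genes, of which 77 had a called positive difference in response, 4 a negative one and 18 were not called. Over all genes tested 22% were positive and 17.7% negative, shares that stand beside each count of positive and negative list members below. Their median was 1.53 for the difference in response, -1.45 at the start and 0.03 at the end. Among 17 ligands and chemokines 11 were positive and 1 negative, with a median of 1.36. Cxcl11 (4.36 ± 0.22), Ccl5 (3.58 ± 0.18) and Cxcl9 (3.41 ± 0.15), chemokines for T cells, each fell in ES cells by over 3 units and did not pass the test in adult cells. For Cxcl11 the levels were 9.86, 10.50 and 10.56 in undifferentiated ES cells and between 5.93 and 6.32 on the other 9 arrays. Interferon beta itself, Ifnb1, was looked up after the values were seen. Its group means lay between 4.93 and 5.25 in all 4 groups, and its difference in response was not called (-0.32, adjusted p = 0.158).

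Receptors, STATs and IRFs came next, with 14 of 19 positive, 1 negative and a median of 0.82. Usp18, which cleaves ISG15 from proteins and dampens receptor signalling, had a difference of 4.14 ± 0.12. Stat2, a transcription factor of the interferon response, read 11.27, 11.32 and 11.26 in undifferentiated ES cells and 9.14, 9.18 and 9.32 in undifferentiated adult cells. It ended at 9.72, 9.63 and 9.73 in ES cells and at 9.71, 9.75 and 9.78 in adult cells, which overlap. Jak2, a receptor-bound kinase, reached the shared end level by another route. It did not pass in ES cells (-0.19 ± 0.11, adjusted p = 0.159) and rose in adult cells by 1.68 ± 0.11, from 8.71, 8.91 and 8.67 to 10.49, 10.44 and 10.39.

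Of 14 nucleic acid sensors 10 were positive and 1 negative. Ifih1, a sensor of long double-stranded RNA, had the largest value of this list (3.62 ± 0.12), followed by the endosomal RNA sensor Tlr3 (2.13 ± 0.19), the kinase Eif2ak2, which halts translation on binding double-stranded RNA (2.02 ± 0.24), and Zbp1 (1.96 ± 0.18). Sting1, the adaptor of the DNA sensing pathway, had 1.76 ± 0.10 and lay outside the start and end classes, with -0.98 at the start and 0.77 at the end.

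Nearly all antiviral effectors had a positive difference in response. Of 29 measured, 28 were positive and 0 negative, 24 were in the start class, and the median was 2.82. Of all genes tested, 22% were positive and 2.78% lay in the positive start class. Their mean level was 9.86 to 9.88 on the undifferentiated ES arrays, 7.36 to 7.41 on the undifferentiated adult arrays, 7.32 to 7.40 on the differentiated ES arrays and 7.33 to 7.44 on the differentiated adult arrays. For this list the groups other than undifferentiated ES cells overlapped. In Stra8 cells the mean level was 7.40 to 7.42 in ES cells and 7.67 to 7.69 in adult cells, so that 129SV ES cells were apart from the other undifferentiated groups too. Rtp4 (4.27 ± 0.12) and the nucleotide kinase Cmpk2 (4.09 ± 0.15) were further members with large values. Ifit3 and Ifit3b are close copies, so their probe sets may read each other's transcripts.

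All 7 measured interferon-inducible GTPases, which attack membranes around intracellular pathogens, were positive, with a median of 3.26. Iigp1 read 9.86, 9.93 and 9.77 in undifferentiated ES cells and between 4.79 and 5.90 on the other 9 arrays. Irgm1 differed from the rest by its end. It read 10.95, 10.96 and 10.88 in undifferentiated ES cells, 8.98 to 9.03 in undifferentiated adult cells, 6.47, 6.65 and 6.75 in differentiated ES cells and 8.23, 8.27 and 8.01 in differentiated adult cells. Adult cells thus began 1.93 ± 0.09 below ES cells and ended 1.54 ± 0.09 above them.

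Antigen presentation was divided. Of 13 genes 7 were positive, 1 was negative and 5 were not called. B2m, the shared light chain of MHC class I, read 12.85, 12.88 and 12.86 in undifferentiated ES cells and 10.22, 10.10 and 10.28 in undifferentiated adult cells. It then read 11.83, 11.98 and 11.50 in ES cells and 11.73, 11.70 and 11.67 in adult cells, which overlap. ES cells fell by 1.09 and adult cells rose by 1.50, and the difference in response was 2.59 ± 0.14 (adjusted p = 6.44e-08). The class I gene H2-Q4 (3.72 ± 0.14), the peptide transporter Tap1 (1.55 ± 0.10) and the immunoproteasome subunit Psmb8 (1.21 ± 0.17) were in the start class as well. H2-Q4 belongs to a family of near-identical genes, so its signal may include its relatives.

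Genes of stromal cells also had mostly positive differences in response, and their levels differed among all 4 groups. Of 23 fibroblast markers 20 were positive and 1 negative, beside 22% and 17.7% of all genes. The median of the markers was 0.91, which splits into -0.59 at the start and 0.34 at the end. Their mean level was 10.51 to 10.56 in undifferentiated ES cells and 9.76 to 9.80 in undifferentiated adult cells. After differentiation it was 8.55 to 8.65 in ES cells and 9.08 to 9.12 in adult cells. None of these 4 ranges overlapped. In Stra8 cells the order of origin was reversed, at 9.33 to 9.38 in ES and 10.11 to 10.15 in adult cells. Their part in the interferon result was not tested. In bulk RNA, fewer cells of a type and less RNA per cell cannot be told apart.

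Secreted proteases and cytokines gave 18 of 19 positive and 0 negative, beside 22% and 17.7% of all genes. The median was 1.83, and 11 genes lay in the start class, beside 2.78% of all genes on its positive side. Here both origins fell. In ES cells 16 of the 19 genes were lower after differentiation, beside 26.1% of all genes, and in adult cells 15 were, beside 29.7%. Mmp13, a collagenase, read 13.48, 13.46 and 13.48 in undifferentiated ES cells and 10.66, 10.38 and 10.61 in undifferentiated adult cells, and between 5.91 and 6.24 on all 6 differentiated arrays. ES cells fell by 7.33 and adult cells by 4.49. The cytokine Il6 fell by 6.40 and 3.20, from 10.94 to 11.02 in ES cells and 7.75, 7.53 and 7.70 in adult cells. Saa3, an acute phase protein, had a difference in response of 3.41 ± 0.14, and the siderophore-binding protein Lcn2 of 2.94 ± 0.12. Lcn2 kept an end difference just under 2-fold (-0.99 ± 0.09). The blood and macrophage list did not share this pattern: of 16 genes 1 was positive, 3 were negative and 12 were not called.

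Hypoxia and glycolysis genes formed another group of the positive side. Cells short of oxygen stabilise HIF transcription factors, which raise glucose uptake, glycolysis and collagen hydroxylation. Of 24 measured genes 23 were positive and 0 negative, beside 22% and 17.7% of all genes. The list median was 1.07, with -0.83 at the start and 0.25 at the end. At the start all 24 were lower in adult cells (21.3% of all genes were). The mean level of the list was 11.62 to 11.66 in undifferentiated ES cells, 10.39 to 10.44 in undifferentiated adult cells, 10.35 to 10.42 in differentiated ES cells and 10.61 to 10.65 in differentiated adult cells.

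Ero1a, which forms disulphide bonds in the endoplasmic reticulum, read 13.37, 13.50 and 13.36 in undifferentiated ES cells and 10.31, 10.21 and 10.23 in undifferentiated adult cells. It ended at 11.88, 11.87 and 11.83 in ES cells and 11.93 to 12.05 in adult cells. ES cells fell by 1.55, adult cells rose by 1.74, and the difference in response was 3.29 ± 0.09 (adjusted p = 3.36e-10). Ndrg1, a stress-induced gene that hypoxia raises, gave 2.47 ± 0.11 with the same opposite movements (-1.23 and 1.24). P4ha2, a collagen prolyl hydroxylase subunit, behaved otherwise. It rose by 0.20 in ES cells, from 10.97, 11.06 and 10.96 to 11.14, 11.17 and 11.28, and by 3.14 in adult cells from 8.88, 8.71 and 8.94 to 11.97, 11.99 and 11.98.

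The core of the HIF binding site, ACGTG or its reverse complement CACGT, was looked for in the same promoter windows because this list moved together. It was in 17 of 22 genes of the list with an entry (77.3%), in 3809 of 15614 genes overall (24.4%) and in 129 of 432 genes of the positive start class (29.9%). The list was chosen by role in hypoxia and glycolysis, so its share would be the same whatever these arrays showed. Ero1a is on the minus strand at chr14:45318573-45318822 and P4ha2 on the plus strand at chr11:54100674-54100923, both of build GRCm38.p6, with the core in capitals.
Ero1a: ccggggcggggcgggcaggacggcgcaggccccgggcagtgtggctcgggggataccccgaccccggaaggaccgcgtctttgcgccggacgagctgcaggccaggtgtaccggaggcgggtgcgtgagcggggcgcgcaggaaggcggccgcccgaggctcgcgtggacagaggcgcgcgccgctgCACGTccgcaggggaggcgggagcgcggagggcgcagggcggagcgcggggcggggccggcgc
P4ha2: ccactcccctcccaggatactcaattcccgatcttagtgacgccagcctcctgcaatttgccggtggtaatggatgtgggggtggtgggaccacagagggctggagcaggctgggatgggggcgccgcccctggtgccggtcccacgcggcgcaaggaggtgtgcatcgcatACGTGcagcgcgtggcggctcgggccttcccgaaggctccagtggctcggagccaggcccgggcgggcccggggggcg

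The core began 63 bases before the start in Ero1a and 78 bases before it in P4ha2, which had another in the bases after the start that are not shown. No match lay in the window of Adm, the gene of this list with the largest difference in response.

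Amino acid stress genes were a further list with more positive than negative values, 18 of 21 against 0 (22% against 17.7% over all genes). These 21 had a median of 0.96. Their mean level was 10.10 to 10.15 in undifferentiated ES cells, 9.15 to 9.18 in undifferentiated adult cells, 8.82 to 8.97 in differentiated ES cells and 8.99 to 9.07 in differentiated adult cells. Slc7a11, the cystine transporter, had a difference of 3.32 ± 0.15, and Chac1, which degrades glutathione, of 1.95 ± 0.15. Vldlr, a lipoprotein receptor, read 10.45, 10.55 and 10.52 in undifferentiated ES cells and 7.38, 7.38 and 7.33 in undifferentiated adult cells. It ended at 9.31, 9.33 and 9.22 in ES cells and 9.09, 9.13 and 9.07 in adult cells, with a difference in response of 2.95 ± 0.08 (adjusted p = 3.65e-10). At the end 8 of the 21 genes were higher in adult cells, beside 16.8% of all genes, and 3 were lower, beside 9.95%.

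**Figure D3:**
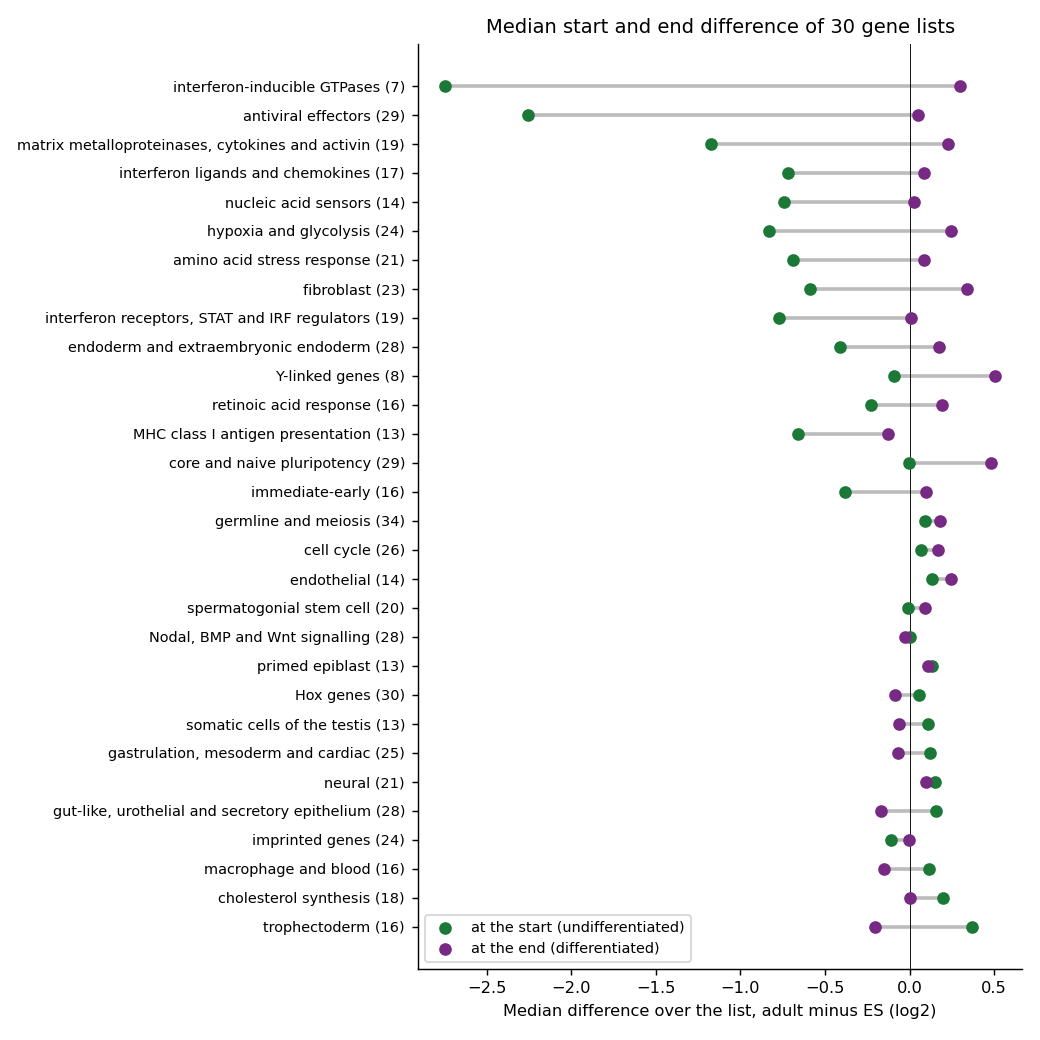
Median difference between adult and ES cells (adult minus ES, log2) over each of 30 gene lists, at the start (green) and at the end (purple), ordered by the median difference in response, with the number of measured genes in brackets. The interferon, protease, hypoxia and stress lists start below 0 and end near it. The pluripotency list starts at -0.00 and ends at 0.48.

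Few genes began higher in adult cells and lost that lead. This negative side of the start class held 44 genes, and in 24 of them only the adult cells changed at least 2-fold, by falling, which 4.36% of all genes did in adult cells. Foxn4, a forkhead transcription factor of neural progenitors, read 7.21, 7.22 and 7.24 in undifferentiated ES cells and 8.79, 8.62 and 8.71 in undifferentiated adult cells, and between 6.99 and 7.49 after differentiation. Its difference in response was -1.68 ± 0.14 (adjusted p = 1.87e-06). Atp1b2, a subunit of the sodium pump, gave -2.03 ± 0.11. The neuronal tubulin Tubb3 (-1.04 ± 0.14), the RNA-binding protein Elavl3 (-1.13 ± 0.15) and the DNA methyltransferase Dnmt3a (-1.07 ± 0.10) also belonged here. Small RNA genes made up 6 of the 44 (13.6%), beside 365 of 19919 genes with a RefSeq type (1.83%). Among them Snord118 read 7.54, 8.37 and 8.56 in undifferentiated adult cells and between 5.52 and 6.24 on the other 9 arrays. The largest value, that of Usp17ld (-2.38 ± 0.71, adjusted p = 0.0185), rested on scattered arrays. Usp17ld read 10.92, 8.21 and 9.89 in undifferentiated adult cells, which overlap the 8.16, 8.59 and 8.25 of ES cells, and leaving out arrays in turn moved it between -3.11 and -1.75.

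On the negative side of the end class the 6 largest differences in response were those of Scel, Upk1a, Zim1, Mab21l4, Upk3bl and Mal. In the 98 genes of this side (0.492%) adult and ES cells began within 2-fold of each other or were not called apart, and adult cells ended lower. In 70 of them only the ES cells changed at least 2-fold, by rising, which 4.82% of all genes did in ES cells, and in 11 both rose. The medians were 1.61 for the ES response and 0.03 for the adult response. Scel, a protein of the cornified envelope of stratified epithelium, read 5.27, 5.08 and 5.28 in undifferentiated ES cells and 5.57, 5.51 and 5.41 in undifferentiated adult cells. It reached 10.40, 10.36 and 9.32 in differentiated ES cells but 6.18, 6.16 and 6.35 in differentiated adult cells. The difference in response was -4.08 ± 0.31 (adjusted p = 8.68e-07), and it lay between -4.43 and -3.89 when arrays were left out in turn. Mab21l4 (-3.36 ± 0.36) showed the same lower replicate 3 of the ES cells, at 9.54 against 10.75 and 10.67. Leaving out arrays in turn moved it between -3.75 and -3.14. Without replicate 3 of the differentiated ES cells the end class of both signs held 187 genes in place of 182, of which 170 were shared.

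Upk1a is a uroplakin, a membrane protein of the bladder surface. It read 7.51, 7.53 and 7.58 in undifferentiated ES cells, 7.95, 7.91 and 8.13 in undifferentiated adult cells, 11.28, 11.30 and 11.35 in differentiated ES cells and 7.69, 7.84 and 8.03 in differentiated adult cells. ES cells rose by 3.77 ± 0.09 while the adult response was -0.14 ± 0.09 (adjusted p = 0.187), so that the difference in response was -3.92 ± 0.12. Upk3bl, a uroplakin-like gene, gave -3.33 ± 0.11, and Mal, a protein of apical membrane transport, -3.02 ± 0.14. Upk1b and the simple epithelial keratin Krt7 rose in both origins but further in ES cells. Upk1b reached 11.54, 11.47 and 11.45 in ES cells and 9.70, 9.65 and 9.56 in adult cells. Krt7 reached 10.71, 10.73 and 10.75 in ES cells and 9.15, 9.13 and 9.01 in adult cells.

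The list of gut-like, urothelial and secretory genes did not move as a whole. Of 28 genes 8 were negative, 5 positive and 15 not called, with a median of -0.22. Over all genes 17.7% were negative and 22% positive. The trophectoderm list, genes of the outer layer of the early embryo that forms the placenta, had 10 of 16 negative and 2 positive, with a median of -0.51. Elf5, a transcription factor of trophoblast stem cells, rose by 1.61 ± 0.10 in ES cells and did not pass in adult cells (-0.09 ± 0.10, adjusted p = 0.495). Gata3 rose in both, by 2.94 and 1.57. Cdx2, a factor that specifies trophectoderm, read between 6.19 and 6.90 on all 12 arrays. Its difference in response lay between -0.72 and -0.47 when arrays were left out in turn. The adhesion molecule Cdh1 fell in adult cells from 12.01, 12.14 and 12.07 to 10.37, 10.37 and 10.38, and read between 11.40 and 11.51 on all 6 ES arrays. Tnnt2, cardiac troponin T, rose in ES cells by 2.52 ± 0.08 and did not pass in adult cells (0.14 ± 0.08, adjusted p = 0.174).

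Imprinted genes, expressed from the copy of 1 parent, gave some of the largest end differences, although their list went both ways (7 positive, 6 negative and 11 not called of 24). Over all genes 22% were positive and 17.7% negative, not far from these counts. Zim1 read 6.49, 6.26 and 6.52 in undifferentiated ES cells and 6.42, 6.49 and 6.68 in undifferentiated adult cells, which overlap. It reached 11.01, 10.95 and 10.76 in ES cells and 7.15, 7.15 and 7.44 in adult cells, an end difference of -3.66 ± 0.11 (adjusted p = 1.17e-09). Igf2, a fetal growth factor, rose to 12.43, 12.41 and 12.37 in ES cells and to 10.32, 10.37 and 10.35 in adult cells. Its clearance receptor Igf2r rose in ES cells by 1.07 and fell in adult cells by 0.78, and ended at 12.10, 12.12 and 12.12 in ES cells against 9.56, 9.54 and 9.51 in adult cells. Grb10, which restrains insulin receptor signalling, did not pass in ES cells (0.01 ± 0.07, adjusted p = 0.935). In adult cells it fell from 9.18, 9.07 and 9.20 to 7.89, 7.75 and 7.82, so that a start difference of -1.54 widened to -2.88. Sgce, a sarcoglycan, went the other way, with a start difference of -1.42 that closed to 0.13.

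**Figure D4:**
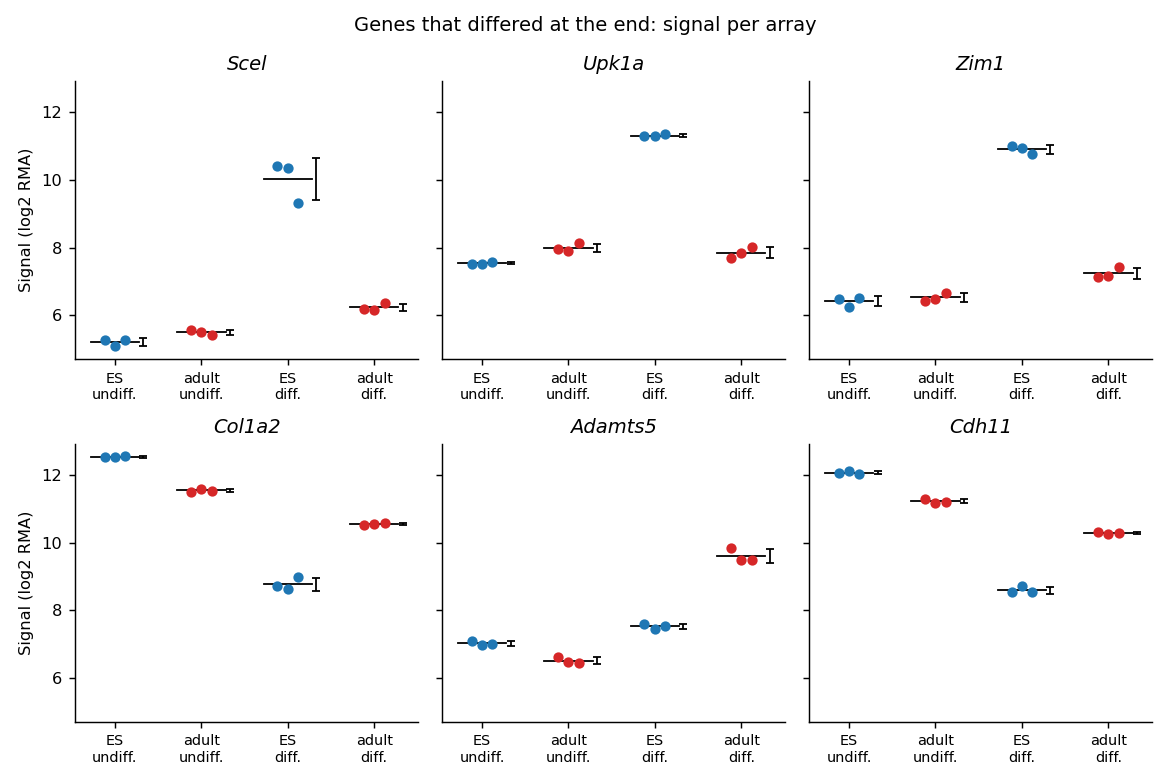
Signal (log2) on each of the 12 arrays for 6 genes of the end class, in ES cells (blue) and adult cells (red). The upper panels show the largest negative and the lower panels the largest positive differences in response, with points for arrays, lines for group means and bars for the SD of 3 arrays. Scel, Upk1a and Zim1 end above 9 in ES cells and below 9 in adult cells.

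Adult cells ended higher in 84 genes of the end class (0.421%). In 41 of them only adult cells rose at least 2-fold, which 7.53% of all genes did in adult cells. In 19 both rose, and in 15 only ES cells fell, which 6.8% of all genes did in ES cells. The 6 largest differences in response on this side were those of Col1a2, Adamts5, Cdh11, Slc6a2, Pgm5 and Mmp2. Adamts5, a protease that cuts aggrecan, read 7.59, 7.45 and 7.55 in differentiated ES cells and 9.83, 9.48 and 9.50 in differentiated adult cells. It rose by 0.51 and 3.09, with a difference in response of 2.58 ± 0.13 (adjusted p = 3.88e-08). Mmp2, a gelatinase, did not pass in ES cells (0.19 ± 0.08, adjusted p = 0.0567) and rose in adult cells to 12.38, 12.36 and 12.29. Its start difference of -0.98 ± 0.08 was just short of 2-fold, and its end difference was 1.39 ± 0.08. Slc6a2, the noradrenaline transporter, reached 9.85, 9.93 and 9.77 in adult cells and 7.64, 7.45 and 7.55 in ES cells. Col1a2, a chain of type I collagen, also began just short of 2-fold apart (-0.99 ± 0.08) but fell in both. It fell in ES cells from 12.52, 12.52 and 12.55 to 8.71, 8.62 and 8.98, and in adult cells from 11.51, 11.58 and 11.54 to 10.52, 10.56 and 10.58. The mesenchymal cadherin Cdh11 followed the same course, with a difference in response of 2.54 ± 0.09.

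The retinoid list had members in the start and end classes. Retinoic acid is made from vitamin A and patterns the embryo. Of 16 genes 9 were positive and 2 negative, beside 22% and 17.7% of all genes. Aldh1a1, which makes retinoic acid, read 8.20, 8.12 and 7.93 in differentiated ES cells and 10.24, 10.13 and 9.97 in differentiated adult cells (2.26 ± 0.15, adjusted p = 2.42e-07). Cyp26b1, which degrades it, reached 9.29, 9.04 and 9.23 against 10.46, 10.67 and 10.62. Dhrs3, which returns retinal to retinol, lay in the start class instead, since it ended at 11.57, 11.42 and 11.39 in ES cells and 11.64, 11.66 and 11.51 in adult cells after a start difference of -1.51. Stra8, a retinoid-induced gene of premeiotic germ cells, rose slightly in both origins and ended at 7.17, 6.83 and 7.09 in ES cells and 7.52, 7.55 and 7.57 in adult cells. Of 30 Hox genes, which retinoic acid also regulates, 8 were negative, 2 positive and 20 not called, beside 17.7% negative of all genes.

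Endoderm genes rose in both origins, and further in adult cells, where they mostly began lower. The list had 17 of 28 positive and 7 negative, beside 22% and 17.7% of all genes. The median was 0.74, which splits into -0.41 at the start and 0.17 at the end. At the start 17 of the 28 were lower in adult cells, beside 21.3% of all genes, and 0 were higher. In ES cells 24 of them rose, beside 25.8% of all genes, and in adult cells 21 did, beside 26.5%. Cubn, an endocytic receptor of visceral endoderm, rose in ES cells from 8.68, 8.68 and 8.59 to 11.04, 11.13 and 10.92. In adult cells it rose from 6.34, 6.29 and 6.44 to 11.47, 11.40 and 11.40. The 5.07 ± 0.07 rise of adult cells was 2.68 ± 0.10 above that of ES cells, mostly from the lower start (-2.29) rather than the end (0.39). Srgn, a proteoglycan of secretory granules, and Pdgfra, a growth factor receptor of primitive endoderm, followed it with 2.48 ± 0.13 and 2.01 ± 0.08. The endoderm regulators Gata4 and Gata6 rose in both origins, by 3.32 and 4.40 and by 3.12 and 4.28. Sox17 ended at 8.86, 8.83 and 8.96 in ES cells and 9.40, 9.55 and 9.47 in adult cells. The endothelial receptor Kdr rose in adult cells by 2.18 ± 0.09 and did not pass in ES cells (0.15 ± 0.09, adjusted p = 0.171). Of 14 endothelial genes 5 were positive and 1 negative, beside 22% and 17.7% of all genes.

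The 27 genes (0.135%) with opposite differences at both times crossed over. Adult cells began lower in all of them and ended higher, by a median of -1.44 and 1.30, which the class fixes. Adm, a vasodilator peptide that hypoxia induces, read 12.33, 12.47 and 12.40 in undifferentiated ES cells and 8.76, 8.84 and 8.82 in undifferentiated adult cells. It read 7.58, 7.37 and 7.53 in differentiated ES cells and 8.58, 8.60 and 8.50 in differentiated adult cells. ES cells fell by 4.91 while adult cells fell by 0.25, a difference in response of 4.67 ± 0.10 (adjusted p = 7.06e-11). Dcn, a collagen-binding proteoglycan, crossed by moving in both origins. It fell from 12.70, 12.69 and 12.63 to 10.39, 10.35 and 10.21 in ES cells and rose from 10.15, 10.12 and 10.18 to 11.40, 11.40 and 11.29 in adult cells (3.57 ± 0.09, adjusted p = 3.36e-10). Tcim, a regulator of Wnt signalling, likewise fell by 2.39 and rose by 1.55. The matrix protein Postn gave 3.72 ± 0.20, the elastic fibre protein Fbln5 3.63 ± 0.20 and the collagen chain Col5a2 3.01 ± 0.09. In Stra8 cells, adult cells were above ES cells for all 27 genes, with a median of 0.71. Without replicate 3 of the differentiated ES cells this class held 27 genes, of which 25 were shared.

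**Figure D5:**
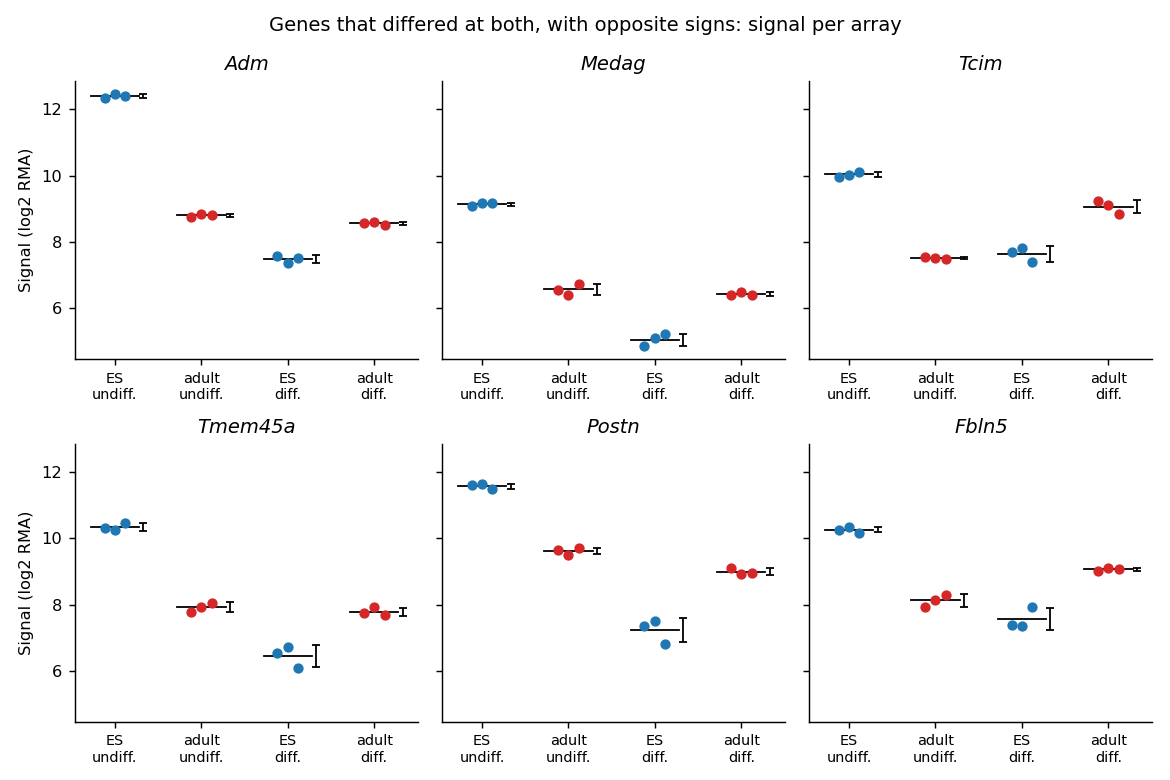
Signal (log2) on each of the 12 arrays for the 6 genes with the largest difference in response among those that crossed over, in ES cells (blue) and adult cells (red). Points are arrays, lines are group means and bars are the SD of 3 arrays. In each panel the adult arrays lie below the ES arrays before differentiation and above them after it.

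Among the genes whose responses differed at least 2-fold, 4 were also at least 2-fold apart in the same direction at both times. Over all genes 12 were. Dppa3, which protects DNA methylation in the early embryo and germ cells, read 6.94, 6.83 and 6.90 in undifferentiated ES cells and 9.17, 9.15 and 9.53 in undifferentiated adult cells. It stayed at 6.96, 7.04 and 6.84 in ES cells and fell to 7.98, 7.90 and 8.23 in adult cells (-1.30 ± 0.16, adjusted p = 4.52e-05). Calcoco2, an autophagy receptor, fell in both and more in adult cells, which ended at 8.69, 8.58 and 8.51 against 7.26, 7.27 and 6.72. Nxf3, of the nuclear RNA export family, was the gene whose lead in adult cells grew, from 1.05 ± 0.12 to 2.59 ± 0.12. Grb10 was the fourth.

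The pluripotency factors fell less in adult cells. Of 29 genes in the list 18 were positive and 2 negative, with a median of 0.45, -0.00 at the start and 0.48 at the end, beside -0.08, 0.06 and -0.03 over all genes. Pou5f1, the core factor Oct4, read 12.68, 12.62 and 12.51 in undifferentiated ES cells and 12.52, 12.54 and 12.63 in undifferentiated adult cells, which overlap. It fell to 9.51, 9.68 and 9.19 in ES cells and to 9.97, 10.10 and 10.21 in adult cells, a difference in response of 0.67 ± 0.16 (adjusted p = 5.22e-03). Sox2 gave 0.61 ± 0.18 (adjusted p = 0.0159) and Nanog 0.58 ± 0.09 (adjusted p = 2.12e-04). Nanog ended at 10.91, 10.97 and 10.88 in ES cells and 11.42, 11.44 and 11.34 in adult cells. For Zfp42 the value of 0.45 ± 0.24 was not called (adjusted p = 0.159). Its differentiated adult arrays read 9.48, 9.26 and 8.63, and without replicate 3, the lowest, the value was 0.70 (adjusted p = 0.00281). Klf4 did not pass in ES cells (0.00 ± 0.07) and rose in adult cells by 0.33. Its difference of 0.32 ± 0.10 (adjusted p = 0.0213) was 0.17 after quantile normalisation of the arrays (adjusted p = 0.229). Tdgf1, a Nodal co-receptor, and Utf1 were in the end class. Tdgf1 ended at 8.55, 8.85 and 8.51 in ES cells and 9.84, 9.88 and 9.79 in adult cells, and Utf1 at 9.18, 9.28 and 8.93 against 10.35, 10.49 and 10.20. Nr0b1, an orphan nuclear receptor, fell by 4.03 and 2.23 from a start difference of -1.19.

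Germ cell genes gave 16 of 34 positive and 5 negative, with a median of 0.31. Dazl, an RNA-binding protein of germ cells, read 8.46, 8.34 and 8.25 in undifferentiated ES cells and 6.69, 6.89 and 6.86 in undifferentiated adult cells. It rose to 8.92, 8.99 and 8.54 in ES cells and to 9.63, 9.46 and 9.44 in adult cells, with a difference in response of 2.23 ± 0.16 (adjusted p = 6.12e-07). Ddx4 (-0.17 ± 0.13, adjusted p = 0.333) and the GDNF receptor Gfra1 of spermatogonial stem cells (0.24 ± 0.15, adjusted p = 0.205) were not called.

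Other lists held members of both signs in similar numbers. The primed epiblast list had 3 positive and 3 negative of 13, mesoderm 9 and 8 of 25, neural genes 4 and 6 of 21, and somatic cells of the testis 2 and 3 of 13. Nodal, BMP and Wnt signalling had 11 positive and 9 negative of 28, with the secreted ligand Wnt5a at 2.33 ± 0.11 and Bmp2 at 1.53 ± 0.19. Spermatogonial stem cell genes had 6 positive and 3 negative of 20, with 11 not called and a median of -0.03. Positive members outnumbered negative ones among cell cycle genes (11 and 4 of 26) and immediate-early genes (8 and 1 of 16). Cholesterol synthesis leaned the other way, with 9 negative and 3 positive of 18 and a median of -0.39. Of 8 Y-linked genes 5 were positive and 2 negative, with a median of 0.69. All these counts of the difference in response read against 22% positive and 17.7% negative over all genes. At the end 5 of the 8 Y-linked genes were higher in adult cells and 0 lower, beside 16.8% and 9.95% of all genes. Their mean level then was 6.38 to 6.46 in ES cells and 6.80 to 6.97 in adult cells. Before differentiation it was 6.55 to 6.60 and 6.39 to 6.52.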

How the data were processed

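Total RNA was extracted with Trizol, treated with DNase I and labelled with biotin for Affymetrix Mouse Gene 1.0 ST arrays, per the labels' protocols. Signals are the log2 values as deposited, which come from RMA run in Affymetrix Expression Console according to the submitters' processing notes. RMA corrects background, brings arrays to a shared distribution and summarises probes. Versions, and whether all arrays were normalised together, are not given in the sources used here. No detection call or background level was used here, so low signals could not be set against background, and the number of arrays limits the precision.

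Names come from GEO's platform annotation. Of 35556 probe sets, 21789 had 1 symbol, 1621 had several and 12146 were unnamed here, and 21698 matched RefSeq by gene ID. For 999 genes with several probe sets the brightest was used, which left 19938 genes. Of the named genes 8 had several probe sets, and none of them had probe sets called in opposite directions.

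A mean per group was fitted to the 12 arrays with limma 3.58.1 in R 4.3.3 (lmFit and eBayes, 8 residual and 3.88 prior degrees of freedom). Genes were called at a Benjamini-Hochberg adjusted p under 0.05 over all genes tested, and at 2-fold with a log2 difference of at least 1. Each SE uses the spread shared over the 4 groups. On simulated data with 19938 genes, the fit of the difference in response recovered 84 of 100 genes changed by 1 and 98 of 100 changed by 2, and called 9 unchanged genes. The simulation had normal noise with the same spread in all groups, no difference at the start and few changed genes. In the real data 39.7% of genes were called, so these rates need not hold there.

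Named genes are the 6 with the largest difference in response per class and sign, the 4 largest per list and a fixed set of stem cell, germ cell and interferon genes. Members of this set that matched no probe set by symbol were not analysed here. The 30 lists held 638 genes, of which 586 were measured. The classes, members and lists were chosen with earlier results of these data known, so their counts are descriptions. Promoter letters are those of RefSeq on GRCm38.p6. A gene with several promoter entries counted as holding a motif if any entry did.

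Replicate numbers are shared by the groups. Deviations of arrays with the same number correlated between 0.14 and 0.44 for differentiated ES and adult cells, so the numbers pair those groups, and between -0.22 and 0.11 for the other pairs of groups, where they do not. Alternatives were all 18 arrays, the replicate number as a block, leaving out each array, centring, quantile normalisation, a filter on dim genes, every probe set, array weights, a variance trend and other class thresholds.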

Additional observations from a re-analysis of the deposited data

Results flagged for a closer look

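Differences between the origins under the same contrast were tested by the interaction. At least 2-fold, the response was more positive in adult cells for 1083 genes and more negative for 265. In 9 of the named genes both origins changed at least 2-fold in opposite directions. ES cells fell and adult cells rose for Cxcl10 (difference in response 6.66), Ifit3 (5.80), Tcim (3.94), Dcn (3.57), Ero1a (3.29), Vldlr (2.95), B2m (2.59) and Ndrg1 (2.47). The reverse held for AY036118 (-2.18), which read 10.51, 10.68 and 10.86 in undifferentiated ES cells and 11.96, 11.96 and 11.53 after differentiation, while adult cells went from 11.74, 11.90 and 12.05 to 10.83, 10.95 and 10.75. For Tcim the adult rise of 1.55 ended at 9.24, 9.12 and 8.83, below the 9.97, 10.02 and 10.11 from which ES cells fell.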

How the results depend on the processing

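Among the 165 named genes, no called difference in response changed its sign under any alternative run. With the replicate block 7913 genes were called for the difference in response, 4360 of them positive, and 5245 at the end. The start class held 597 genes, all among the 598, and no 2-fold count moved by over 1.5 times. The numbers pair only the differentiated groups. Of the 165 named genes the block changed 1 call of the difference in response (Hoxa2, -0.61, adjusted p = 0.0476), 2 at the end (Tlr3 lost its call, adjusted p = 0.0561, and Cyp51 gained one), 2 at the start (Usp17ld lost its call, adjusted p = 0.0639, and Upk1b gained one), 0 of the ES response and 4 of the adult response. Counts at the end were the ones that array weights moved: 8199 genes were called there, 3674 of them lower in adult cells. With a class threshold of 0.5 in place of 1 on the log2 scale, the start class held 96 negative genes, the genes with opposite differences were 260 positive and 28 negative, those with the same sign 14 positive and 9 negative, and the rest 0 on each side. At a threshold of 2 the start class held 122 positive and 4 negative genes, the end class 5 positive and 19 negative, opposite or same signs at both times 0 of each, and the rest 956 positive and 242 negative. Of the smallest classes, opposite signs with a negative response had 2 genes under array weights, 1 after quantile normalisation and 0 to 1 when arrays were left out in turn. The same sign with a positive response had 2 genes under array weights, 2 after centring and 0 to 3 when arrays were left out. Leaving out arrays gave 6851 to 8367 genes called for the difference in response, 525 to 578 in the positive start class and 97 to 105 in the negative end class.

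Centring moved the median ES response over all genes from 0.05 to -0.08, and that of the difference in response from -0.08 to -0.05. No list median changed sign with centring, quantile normalisation or the filter on dim genes. Of 165 named genes 159 kept the sign and the side of the threshold in every refit with 1 probe set per gene. Of the 8 with several probe sets, Uba1y also had values that were not called (0.30, adjusted p = 0.126). Klf4 lost its call after quantile normalisation, without replicate 2 of undifferentiated ES cells (0.29, adjusted p = 0.0586) and without replicate 2 of differentiated adult cells (0.31, adjusted p = 0.0502).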
